A study of Mus musculus with 2 samples.

Results

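Peaks of Usp39-bound RNA that lie in first exons are described here. They were taken from 1 deposited list, which runs through the genome in 2 passes of 17990 peaks each, by its own location column, as every peak placed in exon 1 of the transcript named there. The rule gave 2080 peaks, or 5.78% of the list (95% Wilson interval 5.54 to 6.03%). Of these, 815 lay in the first exon of a transcript with several exons, and 1265 lay in the only exon of a transcript that has no other. Those 2 sets are kept apart for most results, because only the former has a first 5′ splice site. Some counts, among them the gene lists and the overlap of the passes, pool them.

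The peaks came from sequencing of immunoprecipitated RNA (RIP-seq) in AML12 cells, a line of mouse hepatocytes grown with dexamethasone. Both groups carried the same genotype, a doxycycline-inducible FLAG-Usp39 expression vector, and both received doxycycline for 72 h, paraformaldehyde for 5 min and isolation of nuclear pellets. One group was the Input, taken without antibody, and the other was the anti-FLAG immunoprecipitate (IP), with 1 library each and no replicate among the libraries analysed here. The study mentions independent experiments for RIP-seq, and the sources used here do not say how these libraries relate to them. The bait was thus a tagged protein made from a vector, and no immunoprecipitate from cells without the tag was analysed here.

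In pre-mRNA splicing, the first exon ends at the first 5′ splice site, where U1 snRNP pairs with the start of the intron. The U4/U6.U5 tri-snRNP, of which Usp39 is a protein, joins later, and U6 then takes the place of U1 at the same site. First exons of many mammalian protein-coding genes begin inside CpG islands, and are therefore rich in G and C.

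The 8 splice sites below were chosen by rule as those touched by the first-exon peaks with the smallest p-values in transcripts with several exons. Each line runs 5′ to 3′ on the strand of the transcript, on the mm10 (GRCm38) genome, with the last 20 bases of exon 1 and the first 10 bases of the intron. Capitals mark the first 6 bases of the intron.
Gm10801 (chr2:98662503-98662532, plus strand): cattttccatgtttttcattGTAACTcatt
Gm10722 (chr9:3000938-3000967, plus strand): gtcctacagtggacatttctAAATTTtcca
Pfn1 (chr11:70654339-70654368, minus strand): agaccttcgttagcattacgGTACTGcgag
Rpl23a (chr11:78182793-78182822, minus strand): agtgcgcccaggagaaacaaGTCAGTaggg
Eif3a (chr19:60790459-60790488, minus strand): tgccctcaagcgcgccaacgGTGAGTaagg
Slc25a4 (chr8:46210802-46210831, minus strand): gggtcaaactgctgctgcagGTCAGGacgg
Rplp1 (chr9:61914347-61914376, minus strand): acgacgaggtgacggtcacgGTAAGTgcgg
Rps26 (chr10:128626053-128626082, minus strand): tgaagcaagcgtcttcgacgGTAAGTgagc
The first 7 peaks carried a p-value of 5.24e-15, the smallest in the list, and the Rps26 peak carried 9.76e-15. The exon was that of a coding transcript in all but Rpl23a and Rps26, where it was that of a transcript annotated with a retained intron. Gm10801 and Gm10722 belong to repeat-masked loci described below. The other 6 are genes of the actin cytoskeleton (Pfn1, profilin), the ribosome (Rpl23a, Rplp1, Rps26), translation initiation (Eif3a) and mitochondrial ADP/ATP exchange (Slc25a4).

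A second set of sequences shows why the single-exon peaks need separate reading. Processed pseudogenes are copies of messenger RNAs put back into the genome, have no introns, and formed the largest group among the single-exon peaks. A stretch of 30 bases in transcript direction is given from a pseudogene peak and from the messenger RNA it matched, and a capital marks a base that differs.
Gm2451 (chr3:139649501-139649530, plus strand): ggtctacatgttccagtatgactccactca
Gapdh messenger RNA: ggtctacatgttccagtatgactccactca
Gm15459 (chr5:5783428-5783457, minus strand): gggtaaccgcaccacAccaagctatgttgc
Hspa8 messenger RNA: gggtaaccgcaccacGccaagctatgttgc
The whole peak of 100 bases at Gm2451 was identical to Gapdh, and the peak of 200 bases at Gm15459 differed from Hspa8 by 1 base (G16A, with the base of the messenger RNA first and positions counted from 1 at the 5′ end of the printed stretch). A read from such a stretch matches both places equally well or nearly so.

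The list held positions and the p-value of the peak caller for each peak, and no read count, so the depth of either library is unknown. Of the 2 passes, which each cover all chromosomes, the first held 1007 of the first-exon peaks and the second 1073. The sources used here do not say what the passes stand for. Joining peaks within 100 bases left 1257 separate sites. All intervals below cover counting error alone, since neighbouring peaks and peaks of 1 gene are not independent, and with 1 library a group no test between groups was possible. As a check of the labelled cell type, 0 of 10 hepatocyte marker genes (Alb, Ttr, Apoa1 and others) held any peak, against 2 of 4 epithelial markers (Krt8 with 14 peaks and Krt18 with 16), 1 of 4 mesenchymal markers (Vim with 8) and 0 of 3 immune markers. A gene without a peak may still be expressed, so these counts do not measure expression.

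Of the 2080 peaks, 2062 lay on exons of 1023 annotated genes. Of those genes, 488 (47.7%) held a single first-exon peak and 55 held 5 or more, and the 10 genes with the most peaks together held 174. The remaining 18 peaks lay on 7 transcripts that did not match the GENCODE M21 annotation, among them 2 peaks named for the telomerase RNA Terc. Most peaks were 1 bin of 100 bases wide (70.0%).

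By type of transcript, 412 of the 815 peaks in transcripts with several exons lay on coding transcripts, 197 on transcripts with a retained intron, 154 on long noncoding transcripts and 26 on transcripts marked for nonsense-mediated decay. Among the 1265 single-exon peaks, 520 lay on pseudogenes, 269 on long noncoding transcripts, 211 on retained-intron models, 158 on coding transcripts and 103 on small RNAs. Coding transcripts were thus the largest group of the former set and pseudogenes that of the latter.

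A p-value of at most 1e-05 is called small here, and 14.4% of the whole list had one. Of the 2080 first-exon peaks, 534 (25.7%, 23.8 to 27.6%) had one. The share was 16.3% (13.9 to 19%) in transcripts with several exons, not far from the background, and 31.7% (29.2 to 34.3%) in single-exon transcripts. Internal exons stood at 19.8%, last exons at 14.6%, 5′ UTRs at 19.6% and introns at 8.69%. The excess over the list was thus seen in the single-exon set. Within it, 53.4% of small RNA peaks and 44.6% of pseudogene peaks had a small p-value, against 13.0% of long noncoding peaks. The smallest p-value of the list, which 385 peaks shared, was held by 92 first-exon peaks, 18 in transcripts with several exons and 74 in single-exon transcripts.

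The share of small p-values moved with how often a sequence occurs in the genome. A stretch at least 95% identical over at least 80% of the peak was found elsewhere on the chromosomes for 748 of the 2080 peaks (36.0%), for 8.96% of those in transcripts with several exons and for 53.4% of the single-exon ones. Of peaks with such a copy, 43.9% (40.3 to 47.4%) had a small p-value, against 15.5% (13.6 to 17.5%) of peaks found in 1 place. Internal exons showed a gap of the same direction, 43.4% against 17.8%. For the peaks in 1 place, transcripts with several exons stood at 13.9% (11.6 to 16.6%) and single-exon transcripts at 17.5% (14.6 to 20.7%). The 14.4% of the list, which counts peaks with copies too, lay inside the former interval and just below the latter. Small RNAs went the other way, with 42.9% against 66.0% in 1 place. The sources used here do not say how reads that fit several places were counted, and its part in these shares was not tested.

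**Figure D1:**
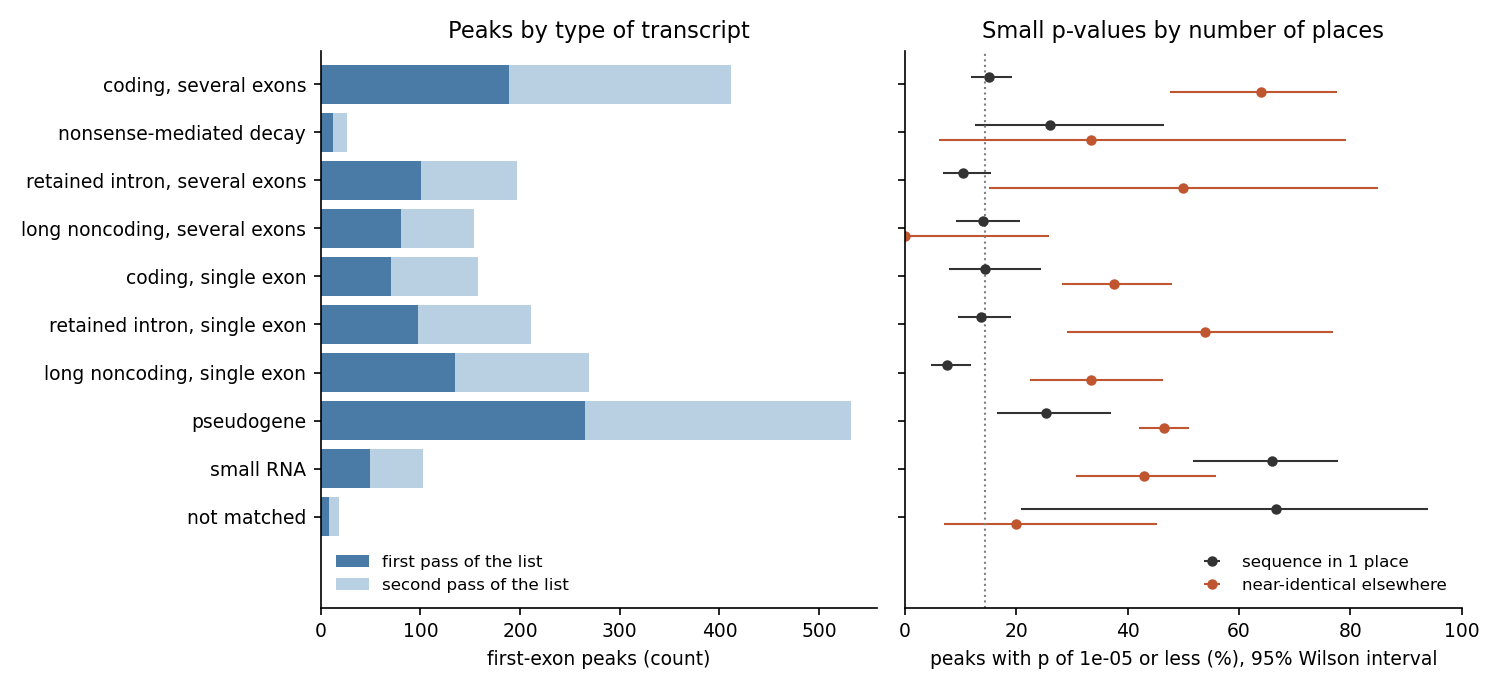
Left, first-exon peaks (count) by type of transcript, split by pass of the list. Right, share of peaks (%) at a p-value of at most 1e-05 and 95% Wilson interval, for peaks found in 1 place of the genome (black) and peaks with a near-identical sequence elsewhere (orange) and the dotted line is the 14.4% of the whole list. Among peaks in 1 place, small RNAs lie at 66.0% and coding transcripts with several exons at 15.2%.

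Coding transcripts with several exons gave the plainest picture of a first exon. Their 412 peaks fell on 271 genes, and 411 of the peaks touched coding sequence. This follows in part from the location column, which has classes of its own for 5′ UTRs and promoters. Of the 412 peaks, 1 touched an annotated 5′ UTR and 19 an annotated transcript start, so nearly all lay downstream of the start codon. Of the 412 peaks, 364 (88.3%) also lay in the first exon of the principal transcript of the gene and 27 (6.55%) in a later exon of it. The number of exons in the transcripts ran from 2 to 79 over all 815 peaks, with a median of 5.

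Single genes show how such peaks were spread. Irs2, the adaptor of the insulin receptor, held 8 peaks in 4 sites of its first exon of 3989 bases, all of 100 bases and none with a small p-value (smallest 9.08e-05). All 8 were named in the list for the neighbouring 9530052E02Rik. Irf2bp2, a partner of the repressor Irf2, held 6 peaks with p-values from 4.24e-09 to 3.68e-04, of which 1 touched the splice site and the others lay 61 to 861 bases upstream. Mcl1, an inhibitor of apoptosis whose pre-mRNA is known for alternative splicing, held 4 peaks in a first exon of 700 bases, at 1.75e-06, 1.75e-06, 8.98e-06 and 3.69e-04. Lama5, the laminin α5 chain with 79 exons, held 1 peak in each pass, at 9.93e-06 and 5.24e-15.

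In Irs2 and Irf2bp2, peaks thus stood at different depths inside the exon, though those of Irf2bp2 joined into 1 site. Both genes were named for holding many first-exon peaks. Of all genes with such a peak, 47.7% held a single one, so this does not describe first exons in general. Gm38394 held 10 peaks on a first exon of 5974 bases, all named for Zbed6, and 3 of them had a small p-value. Cdk12, a kinase of RNA polymerase II, held 5 peaks on 1352 bases with a smallest p-value of 8.98e-06, and Pdzd8 held 5 on 1062 bases. Lama5, Cdk12 and Pdzd8 were picked after their values were seen.

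Coding first exons were rich in G and C, as were 5′ UTRs. The median GC content of peaks in coding transcripts with several exons was 66.2% (quartiles 59.3 and 72.0%), and the median was 65.6% in single-exon coding transcripts. Retained-intron peaks stood at 49.0% and 47.0%, pseudogene peaks at 51.5% and all peaks of the list at 49.0%. Peaks in internal exons had a median of 54.0% and those in 5′ UTRs 63.0% (54.0 and 71.3%), whose quartiles overlapped those of coding first exons. First exons of nonsense-mediated decay transcripts stood at 64.0%. CpG dinucleotides followed the same order, with medians of 9.09 per 100 dinucleotides in coding first exons of transcripts with several exons, 8.08 in single-exon coding transcripts, 7.07 in 5′ UTRs and 2.02 in internal exons. The Eif3a peak, at 73% GC and 13.1 CpG per 100, lay above the upper quartiles of its group, and the Mcl1 peaks ran from 64 to 80% GC.

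**Figure D2:**
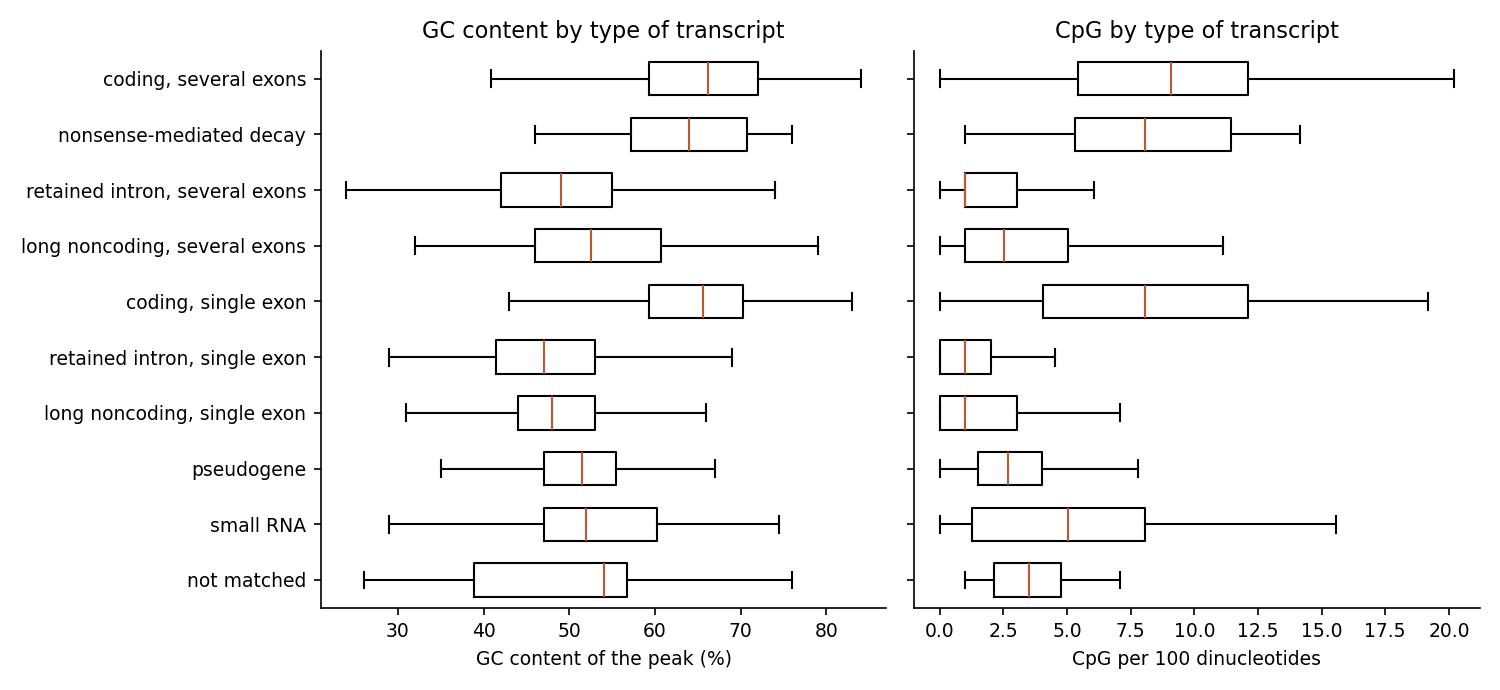
GC content (%, left) and CpG per 100 dinucleotides (right) of first-exon peaks by type of transcript; the box spans the quartiles, the line is the median, and whiskers follow the usual box plot limit with values beyond them not drawn. Coding and nonsense-mediated decay transcripts have medians of 64.0 to 66.2% GC, while the other matched types lie between 47.0 and 52.6%.

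The distance to the first 5′ splice site was measured from the closer edge of each peak. Among 801 matched peaks in transcripts with several exons, 234 (29.2%, 26.2 to 32.5%) touched the splice site, 386 (48.2%, 44.7 to 51.7%) lay within 100 bases, and the median distance was 110 bases. In coding transcripts 150 of 412 (36.4%, 31.9 to 41.2%) touched it, and the median was 43 bases. That median differed by strand and pass. On the plus strand it was 193 bases for 58 peaks in the first pass and 118 for 66 in the second. On the minus strand it was 0 for 131 peaks in the first pass and 25 for 157 in the second. The source of this difference was not tested. Peaks in internal exons of coding transcripts touched their own 5′ splice site in 1117 of 4112 cases (27.2%), with a median of 79 bases. This median, not split by strand, lay below both plus-strand medians of coding first exons and above both minus-strand ones. Peaks on retained-intron transcripts were far from it, with 13 of 197 (6.60%) touching and a median of 412 bases.

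The higher share in coding first exons, which pools both strands, has to be read against the length of coding sequence in which these peaks could lie. The classes of length below pool both strands too. Where the first exon held fewer than 200 coding bases, 94 of 123 peaks (76.4%) touched the splice site, against 49.5% for internal exons of that coding length. With 200 to under 500 coding bases the shares were 29.5% (23.1 to 36.9%) and 26% (23.8 to 28.3%). With 500 or more they were 5.74% and 4.80%. In the shortest class the intervals of first exons (68.2 to 83.1%) and internal exons (46.9 to 52.2%) did not overlap, and in the other classes they did. There the start codon bounds the stretch on 1 side in first exons, and the part of this bound in the difference was not tested.

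**Figure D3:**
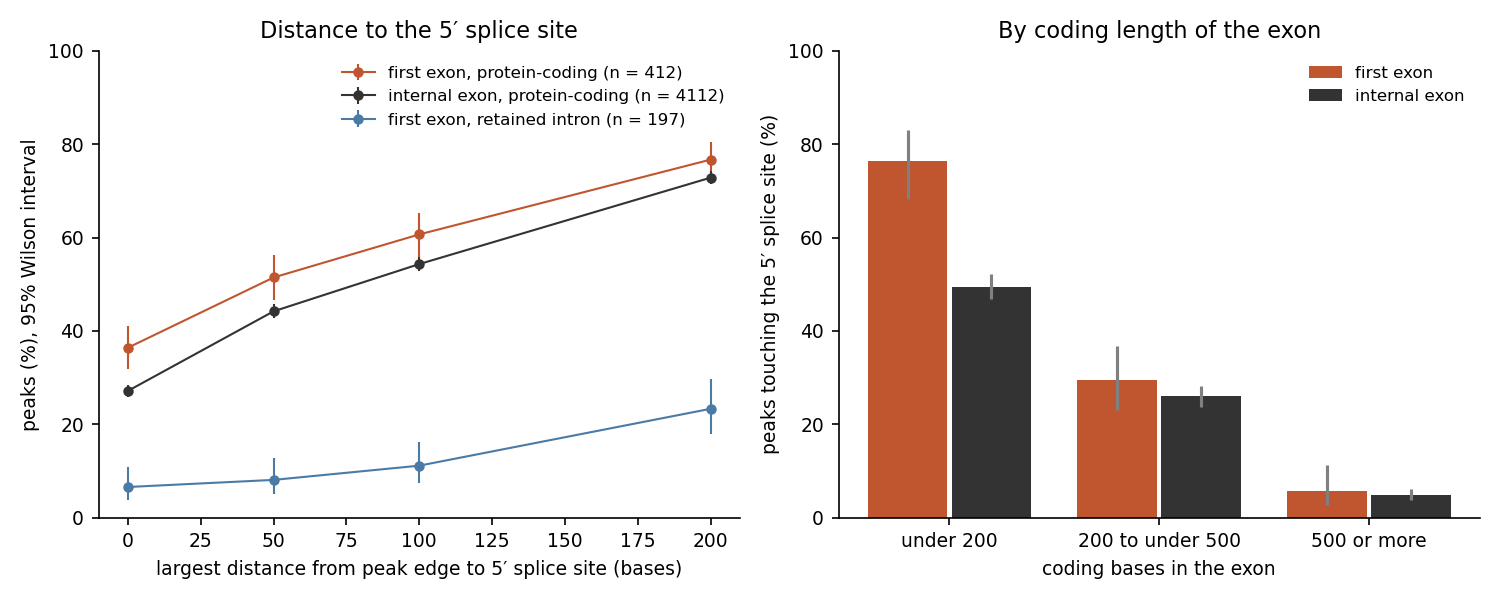
Left, share of peaks (%, 95% Wilson interval) whose nearest edge lies within 0, 50, 100 or 200 bases of the 5′ splice site of their exon, for coding first exons (orange), coding internal exons (black) and first exons of retained-intron transcripts (blue). Right, share of peaks touching the site by coding bases in the exon, with both strands pooled. First and internal exons differ mainly under 200 bases, at 76.4% and 49.5%.

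Most touched sites began with GT, as introns usually do. Of 196 distinct 5′ splice sites touched by a peak, 184 (93.9%) began with GT, 152 (77.6%) had G at the fifth base of the intron, and 43 (21.9%, 16.7 to 28.2%) began with GTAAGT or GTGAGT, the forms that pair well with U1. In coding transcripts GT began 119 of 126 touched sites (94.4%, 89.0 to 97.3%). Of the 37460 first 5′ splice sites of all coding transcripts, 97.9% began with GT, which lies above that interval. Most of the touched coding sites without GT lay in the repeat-masked loci described below. They were those of Gm10717, Gm10718, Gm10721, Gm10722, Gm11168 and Gm10800, and the share without these loci was not computed. Over all 126 touched coding sites, the share with GTAAGT or GTGAGT was 23.8% (17.2 to 32.0%) beside 27.5%. The last exon base was G in 78.6% of the touched coding sites and in 83.9% of all. Among the printed sites Eif3a, Rplp1 and Rps26 had one of these 2 forms, and Pfn1 and Slc25a4 did not.

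The passes of the list often differed at 1 splice site. Rplp1, a stalk protein of the ribosome, had the same 100 bases in both passes, with a p-value of 7.36e-04 in the first and 5.24e-15 in the second. The peak over the splice site of Pfn1 stood in the first pass alone, and those of Eif3a and Slc25a4 stood in the second alone. Krt8, a keratin of simple epithelia, had a peak 3 bases from the splice site in both passes, at 1.45e-13 and 1.43e-05. Krt19 had 2 peaks, the smaller p-value being 1.33e-06. A p-value of the list thus varied by many powers of 10 at 1 place.

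The transcript of Usp39 itself held a first-exon peak. It covered 72344901 to 72345100 of chromosome 6 in both passes, at 3.68e-04 each, and ended 16 bases from the first 5′ splice site. The cells carried an Usp39 vector, and RNA of the vector and of the endogenous gene cannot be told apart by this peak. Of the other genes the study followed, Ptbp1 was the negative control of the paper's RIP-qPCR. This splicing repressor held 2 first-exon peaks on a retained-intron transcript, at 1.88e-04 and 7.36e-04. Hsf1, the heat shock transcription factor, held none, as did Ulk3, Nrbp2, Tcirg1 and Trp53inp1. Those 5 genes had 1, 2, 10, 9 and 0 peaks in any location.

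A first exon of 1 transcript is often no first exon of the main one. For 1055 peaks on genes with a principal coding transcript, 551 (52.2%) lay in its first exon, 417 (39.5%) in an intron of it and 56 (5.31%, 4.11 to 6.83%) in a later exon. For retained-intron transcripts the intron was the rule, with 166 of 195 peaks (85.1%) in transcripts with several exons and 184 of 199 (92.5%) in single-exon models. Their annotated exon 1 was long, with medians of 1013 and 3664 bases.

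Several of the genes with the most first-exon peaks were of this kind. Hnrnpa2b1, an hnRNP protein of RNA transport and splicing, held 10 peaks in 4 sites, 5 in each pass, of which 4 had a small p-value (smallest 1.63e-07). Tra2a, an SR-like splicing activator, held 11 (3 small), and Rbm4b, a splicing regulator, held 13 (1 small). Spaca6, a sperm membrane protein gene, held 19 peaks in 8 sites, 6 in the first pass and 13 in the second, and 8 of them had a small p-value (smallest 1.56e-10). The Spaca6 peaks all lay on a retained-intron model of 4074 bases.

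Others of the same kind were genes of signalling and the cytoskeleton. Rack1, a ribosome-bound scaffold, held 6 peaks with 4 small p-values, the smallest 1.57e-12, and some of them were named for Snord96a. Actn1, an actin crosslinker, held 6 (smallest 8.98e-06), and Plekhg3, Zfand5 and Stk38 held 6 each with none of a small p-value. Csnk1a1, casein kinase 1α, was of another kind and held 6 on a noncoding transcript not annotated with a retained intron, with 1.99e-05 as the smallest. Over all retained-intron peaks in transcripts with several exons, 22 of 197 (11.2%) had a small p-value, and the interval of 7.49 to 16.3% includes the 14.4% of the list.

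Single-exon coding transcripts held 158 peaks on 71 genes, 43 of them with a small p-value. Of the 158, 88 (55.7%) had a near-identical sequence elsewhere. Where none was found, 10 of 70 peaks (14.3%, 7.95 to 24.3%) had a small p-value, beside 14.4% of the list. Ahnak2, a giant scaffold protein gene, held 17 peaks in 3 sites up to 1200 bases wide, 8 of them with small p-values (smallest 3.13e-12), and all were named for the neighbouring Pld4. Intronless transcription factor genes were among the others. Jund had peaks at 4.24e-09, 1.75e-06, 9.13e-05 and 3.69e-04, and Junb had 3, from 1.33e-05 to 1.61e-04. Hist1h1c, a linker histone, held 3 peaks, all in the second pass, at 4.24e-09, 2.47e-08 and 1.99e-05.

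Processed pseudogenes held 510 first-exon peaks on 231 genes, 507 of them on single-exon models. Of the 510 peaks, 460 (90.2%, 87.3 to 92.5%) matched the messenger RNA of a coding gene at 95% identity or more, and 278 were identical to it over the aligned bases. The matches fell on 112 coding genes, and 384 of the 460 peaks (83.5%) matched a gene that also held a peak on its own exons. The name in the list was almost never that of the pseudogene. Over all pseudogenes it was so for 10 of 532 peaks (1.88%), although these peaks lay a median of 201 bases from their own transcript start. How the list chose its names was not tested.

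Ribosomal protein and glycolysis genes held the most peaks among the families counted. Ribosomal protein genes accounted for 224 of the 460 peaks (48.7%) through 47 genes, and glycolysis genes for 74 (16.1%) through 2. These 2 were Gapdh and Pgam1, and Eno1b, behind 3 peaks, was not counted there. The share of each family among all annotated processed pseudogenes was not computed, so no background stands beside these counts. Gapdh, the glycolytic dehydrogenase, alone stood behind 70 peaks on 22 pseudogenes, and its own exons held 15. Rps2 stood behind 22 peaks on 13 pseudogenes with 2 on its own exons, Rpl7a behind 18 with 1, and Rps6 behind 14 with 7. Rpl21, Rpl29, Rpl30 and Rpl35a stood behind 12, 10, 10 and 10 peaks and held none on their own exons. Hspa8, a constitutive chaperone, stood behind 10 with 8 on its own. Peaks on pseudogenes and on the gene they copy cannot be told apart where the sequences are identical.

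**Figure D4:**
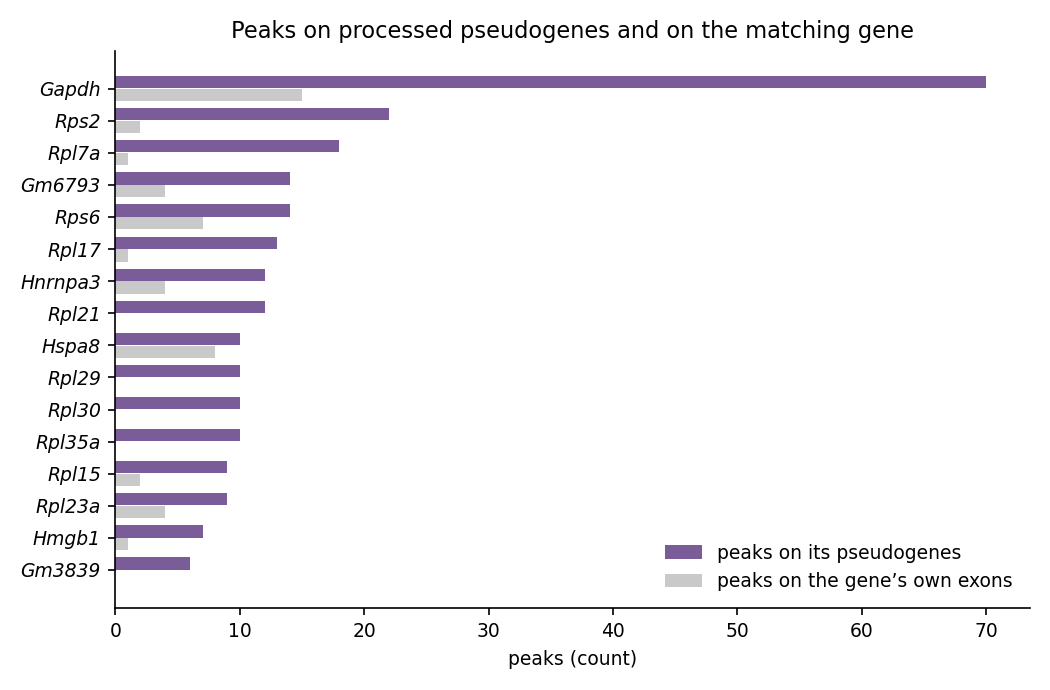
Number of first-exon peaks on processed pseudogenes (purple) and of peaks on the exons of the coding gene they matched (grey), for the 16 genes with the most pseudogene peaks. Gapdh has 70 and 15, and each ribosomal protein gene plotted has more peaks on its copies than on its own exons. The choice of genes by pseudogene peaks favours this excess. Among ribosomal protein genes not plotted both directions occur, as for Rpl9 (5 and 3) and Rpl3 (6 and 10).

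Long noncoding RNAs gave the largest single gene. Kcnq1ot1, the antisense RNA that silences neighbouring genes of its imprinted cluster, is an unspliced transcript of 93.1 kb on chromosome 7 (143203458 to 143296549, minus strand). It held 58 first-exon peaks in 37 sites, 32 in the first pass and 26 in the second. Of the 58, 55 were 100 bases wide, and 2 had a small p-value (smallest 8.98e-06). The peaks crowded toward its 5′ end, with 9, 17, 12 and 12 in the first 4 stretches of 10 kb, 3, 3 and 2 in the next 3, and none in the rest. Its whole length counts as exon 1.

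**Figure D5:**
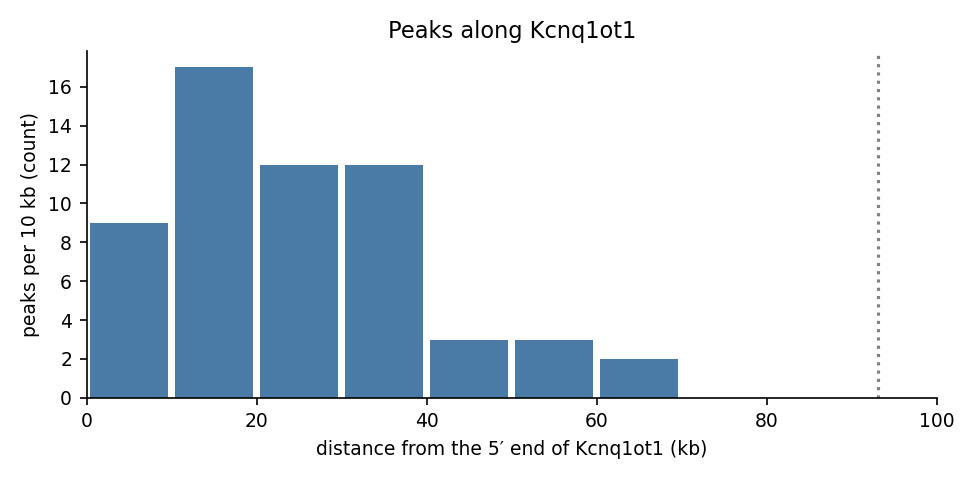
Peaks along Kcnq1ot1, counted in stretches of 10 kb by distance from the 5′ end (kb); the dotted line marks the end of the annotated transcript at 93.1 kb. Counts run from 9 to 17 in the first 4 stretches and are 0 in the last 3, of which the last is incomplete.

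Other long noncoding exons were short by comparison. Gm49759, an exon of 3887 bases, held 12 peaks, named for Gramd2 and Pkm, AC154912.3 held 11, named for the glucocorticoid-induced Fkbp5, and Gm15889 held 10, named for Herpud1, with a smallest p-value of 5.24e-15. Malat1, a nuclear speckle RNA, held 2 peaks in this class (smallest 1.72e-08) and Firre held 2 (2.41e-06). Airn, the antisense RNA of the Igf2r locus, held 3 first-exon peaks of 320 in any location. For Airn, unlike Kcnq1ot1, the peaks lay almost wholly outside the annotated first exon.

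Small RNAs made up 103 peaks on 66 genes. Counts for the RNAs of the spliceosome are given by family. The share over all small RNA genes was not computed, so no background stands beside them. Of 33 U2 genes in RefSeq, 9 held a peak (27.3%, exact binomial 13.3 to 45.5%), 17 peaks in all, with p-values down to 5.24e-15. Of 123 U1 genes, 4 held a peak, 5 peaks in all and none below 9.08e-05. The RNAs of the tri-snRNP held none, with 0 of 12 U4 genes, 0 of 11 U5 genes and 0 of 712 U6 genes. Shares of up to 26.5%, 28.5% and 0.517% remain possible for U4, U5 and U6, if each RefSeq entry is taken as an independent gene. Repeated copies are not independent, and which entries are functional genes was not examined. The minor spliceosome RNAs U11 (0 of 5), U12 (0 of 4) and U6atac (0 of 16) held none either. U6 snRNA was the positive control of the paper's RIP-qPCR, and a gene without a peak here may still be bound.

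The counts of spliceosome RNAs rest on repeated genes. Rnu2-10, a U2 gene on chromosome 11, had peaks at 5.24e-15 and 1.63e-07 in the 2 passes. Gm23971, another U2 gene on chromosome 11, had 8.77e-07 and 5.24e-15. Of the small RNA peaks, 56 of 103 (54.4%) had a near-identical sequence elsewhere in the genome, and the part of such copies in the counts was not tested.

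Other stable nuclear RNAs gave peaks as well. The U3 genes, whose RNA serves in ribosomal RNA processing, all held one (5 of 5), with 9 first-exon peaks. Rnu3b4 had 5.24e-15 in both passes. Rn7s1, an RNA of the signal recognition particle, and Rprl3, an RNase P RNA, also had 5.24e-15 in both passes. Rn7sk, which restrains the elongation factor P-TEFb, had 5.24e-15 and 6.27e-05. Scarna2, a guide RNA of Cajal bodies, had 5.24e-15 and 3.47e-08. The widest first-exon peak of all, 10100 bases at 5.24e-15, overlapped only the edge of the small RNA model Gm27702. On chromosome 19 the peak covered 5824701 to 5834800, and the model 5824652 to 5824707. The peak lay in the region of Neat1, for which it was named.

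The 10 leading first-exon peaks by p-value, the widest first among ties, lay on single-exon models. Besides Gm27702 they fell on Rps2-ps10 and Gm12191, both of pseudogene origin by name or type, on Gm37416, and on the predicted miRNA genes Gm24270, Gm25911, Gm47299 and Gm23935. The cut at 10 fell inside a tie, since further peaks of 300 bases had the same p-value. A peak on Gm10717, a model with 3 exons, was among those left out. Gm24270 and Gm23935 appeared in both passes with the same bases. No mature miRNA was measured, and peaks of 300 to 400 bases are longer than a mature miRNA.

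Repeat-masked loci held 21 of the peaks in transcripts with several exons. At the start of chromosome 9 (3000801 to 3027600), 15 peaks lay on 6 gene models (Gm10717, Gm10718, Gm10719, Gm10721, Gm10722 and Gm11168), 12 with a small p-value, and on average 96.7% of their bases were repeat-masked. At chromosome 2 (98662201 to 98667300), 6 peaks lay on Gm10800 and Gm10801, all with a small p-value, and 68.6% was masked. The printed site of Gm10722 did not begin with GT. Without both loci, the share of first-exon peaks with a small p-value was 25.1%.

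The passes of the list held many of the same places. Of the 1007 first-exon peaks in the first pass, 759 (75.4%) lay within 100 bases of a peak of the second, and 456 (45.3%) overlapped one, against 66.3% and 32.7% over all peaks. A pair of peaks with the same start and end in both passes was found 138 times. Of those 138 pairs, 27 had the same p-value, 37 had a small p-value in both passes, 36 in 1 of them and 65 in neither. A small p-value in 1 pass was thus met by one in the other in about as many pairs as not. The sources used here do not say whether the passes share reads, so this is no measure of replicate error.

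The hexamers GGCCAC and GCCATA were counted on the strand of the transcript in 2062 matched first-exon peaks. GGCCAC was present in 160 (7.76%, 6.68 to 8.99%), beside 5.48% of internal-exon and 4.75% of last-exon peaks. GCCATA was present in 66 (3.2%, 2.52 to 4.05%), beside 2.03% and 2.48%. In transcripts with several exons the shares were 6.87% and 4.62%. On either strand GGCCAC was in 12.3% (11.0 to 13.8%) of first-exon peaks and in 11.0% (10.2 to 12%) of internal-exon peaks, so the intervals overlapped there, and GCCATA was in 6.11% and 4.28%. Peaks of the classes differ in width and base composition, and single-exon peaks were more often wider than 1 bin, so the part of these in the shares was not tested.

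Among protein-coding genes of the annotation, 557 of 21924 (2.54%) held a peak in a first exon of their own. The gene lists were read against that share, and also against the number of their members with any peak. A gene with no peak anywhere could hold none in its first exon. The share among all coding genes with any peak was not computed. Since the 2.54% also counts genes with no peak anywhere, list shares above it do not show a preference for first exons. Of 24 immediate early and AP-1 genes, 6 held a first-exon peak (25%, exact binomial 9.77 to 46.7%) and 12 held any. They were Mcl1 and Jund with 4 peaks, Junb with 3, Ier2 with 2, and Egr1 and Dusp1 with 1. The lists pool single-exon transcripts, where any exonic peak counts as first-exon, with the others. Jund, Junb and Ier2 held theirs on single-exon coding transcripts. The mean length and abundance of these messenger RNAs were not matched to those of other genes.

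Genes of RNA processing and translation came next, and differences between their lists were not tested. Of 29 SR and hnRNP protein genes, 8 (27.6%) held a first-exon peak and 28 held any. Besides Tra2a and Hnrnpa2b1 these included Hnrnpul2 with 4 peaks and Hnrnpu and Hnrnpl with 3 each. The first-exon peaks of Tra2a lay on single-exon retained-intron models. Of 17 tri-snRNP protein genes, Usp39 alone held one, and 7 held any. Of 34 listed cytosolic ribosomal protein genes, 33 held a peak somewhere and 2 held one in a first exon, Rplp1 with 2 and Rpl11 with 1. Over all 76 coding genes with such a symbol, counted after the values were seen, 5 (6.58%, 2.17 to 14.7%) held one, with Rpl23a, Rps26 and Rpl37 added.

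Lists of structural genes were counted in the same way. Of 22 genes of the actin cytoskeleton and junctions, 7 (31.8%, 13.9 to 54.9%) held a first-exon peak and 21 held any, led by Actn1 and Pfn1 with 6 each, and Flna, an actin crosslinker, had 2 (smallest 4.78e-11). Of 17 keratin and epithelial surface genes, 3 (17.6%, 3.80 to 43.4%) held a first-exon peak and 8 held any. Krt8 and Krt19 held 2 each and Tjp1 held 1. Krt7 and Krt18, with 44 and 16 peaks in any location, held none in a first exon. Epcam, Cdh1, Ocln, Krt80 and the listed Cldn genes held no peak anywhere. The fixed histone list was short, and 3 of its 11 matched genes held one, Hist1h1c, Hist1h2bc and Hist2h2aa1. Over all 67 coding genes with a Hist symbol, a count made after the values were seen, 31 (46.3%, 34.0 to 58.9%) held a first-exon peak. These were 47 peaks, 41 of them on single-exon transcripts and 15 with a small p-value. A near-identical sequence elsewhere was found for 40 of the 47, so the gene behind a peak is uncertain in this family.

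Lists of metabolism and stress gave counts of 0 to 3 genes. Of 40 core autophagy genes, 3 held a first-exon peak and 20 held any: Sqstm1, the cargo receptor p62, had 2 (smallest 9.42e-05), Uvrag, a partner of the class III PI3-kinase, had 1 over its splice site at 1.75e-06, and Wipi1 had 1 at 3.77e-04. Atg9b, which the list does not hold, had 2 (smallest 8.98e-06). Of 19 lipogenesis genes, Scd2, a stearoyl-CoA desaturase, and Srebf1, the transcription factor of fatty acid synthesis, held 1 each, at 4.54e-05 and 4.29e-05. Of 17 heat shock genes, Hsp90b1 alone held any first-exon peak, 2 in all. Of 16 genes of hepatocyte products, 0 held a peak in any location, which allows a share of up to 20.6%.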

How the data were processed

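RIP-seq libraries of AML12 cells (1 Input, 1 IP) were trimmed by the authors with Trim Galore (version 0.6.1), checked with FastQC (version 0.11.9), depleted of ribosomal RNA by Bowtie (version 1.2.3) and aligned to mm10 by HISAT2 (version not given in the sources used). The authors ran Piranha with 100-base bins and kept peaks below a p-value of 0.001. The deposited p-value of each peak is that of the caller, with no adjustment stated, and positions, location and gene name were used as deposited. The sources used here do not say whether the Input entered the calls, the columns name no sample, and the depth is unknown. The groups were therefore not compared, and the table of peaks per gene was not used.

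First-exon peaks were taken from the location column. Their transcripts were matched to GENCODE M21 on GRCm38, and sequence and repeat masking were read from that genome with pysam (version 0.24.0). Small nuclear RNA genes were taken from RefSeq. Copies were sought with BLAST (version 2.17.0) at 95% identity over 80% of the peak, in coding messenger RNAs and in the genome. The distance of a peak to a splice site was that of its closer edge. Shares carry 95% Wilson intervals, and gene lists and small RNA families carry exact binomial ones. The steps were checked on simulated data. No test was run, since there was 1 library per group.

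The members and lists were chosen with earlier results of these data known. The rule for named genes took the 10 genes with the most first-exon peaks in transcripts with several exons, the 8 with the most in single-exon transcripts, those of the 10 leading peaks by p-value, the genes the study followed, up to 4 holders and up to 2 others from each list, and the 8 printed splice sites. Genes matched by pseudogenes, small RNAs and other noncoding RNAs outside that rule were chosen after their values were seen. Alternatives used a stricter p-value limit (1e-05), each pass alone, joined peaks, equal weight per gene, single bins, transcripts with at least 2 exons, other windows, either strand, any transcript of the gene and the deposited gene name.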

Additional observations from a re-analysis of the deposited data

How the results depend on the processing

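The share of first-exon peaks in the list was 10.3% at the smaller p-value limit of 1e-05, 6.33% after joining peaks, 9.93% with equal weight per gene, 5.15% among single bins and 2.35% with transcripts of at least 2 exons alone. The share with a small p-value was 29.4% after joining, 22% by gene, 19.5% in single bins, 16.3% with at least 2 exons and 15.5% without near-identical sequence elsewhere. The share over coding sequence (32.4%) was 27.2% at the smaller p-value limit, 29.99% and 34.7% in the first and second pass, 34.8% after joining, 38.9% by gene, 59.9% with at least 2 exons and 39.8% without near-identical sequence elsewhere. The share in a later exon of the principal transcript was 10.8% at the smaller limit, 7.03% with at least 2 exons and 11.8% over any transcript. The share near the splice site was 60.8% at the smaller limit, 54.4% after joining, 54.5% by gene, 40.6% within 50 bases, 62.8% within 200 bases and 35.2% from the middle of the peak. Median GC content (53%) was 52% in the first pass, 55% by gene and 59% with at least 2 exons. On either strand GGCCAC was in 12.3% and GCCATA in 6.11% of peaks. Of the listed genes, 41 held a first-exon peak, and 19 did at the smaller limit. The other 26 of 58 alternative values of these results moved by less than their counting interval. Peaks without near-identical sequence elsewhere, and the set without both repeat loci, were alternatives chosen after seeing the data. The cause of each shift was not tested beyond what the setting itself removes. No paired analysis was possible because each group had 1 library and the list names no sample. Depth is unknown, so a missing peak does not show that a first exon was unbound.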

Other observations

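The symbol named for a peak in the list often differed from the annotated symbol of the exon's gene. Symbols were compared as text, so a renamed gene counts as different. The share of peaks named for another gene was not computed. In transcripts with several exons the names were the same for 655 of 815 peaks (80.4%), and in single-exon transcripts for 318 of 1265 (25.1%). Ahnak2 peaks carried the name Pld4, Irs2 peaks that of 9530052E02Rik, and the 3 Hist1h1c peaks the newer symbol H1f2 of the same gene.

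Peaks named for Terc, on a transcript that did not match the annotation, had p-values of 1.13e-14 and 5.46e-15 in the first and second pass. Nonsense-mediated decay transcripts held 26 first-exon peaks on 18 genes, with a median GC content of 64.0%, and 7 of the 26 had a small p-value. Of the 7 first-exon peaks on 5S ribosomal RNA genes, each on a gene of its own, 0 had a small p-value (upper limit of the 95% Wilson interval 35.4%).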
